A study of Homo sapiens with 12 samples.

Results

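The genes described here encode the proteins of the mitochondrial ribosome and carry a symbol made of MRPS or MRPL and a number. They were taken as all protein-coding genes with such a symbol, closing letters A to C included (MRPS18A, MRPS18B and MRPS18C). This gave 78 of the 60664 genes in the count table, 29 named MRPS and 49 named MRPL, and 77 of them were among the 17960 genes with enough counts to be tested. RNA was sequenced from SK-N-SH cells, an established human neuroblastoma line that holds neuron-like and flat, substrate-adherent cells. The cells were grown on surfaces of 1, 8 or 30 kPa, with 4 libraries at each stiffness. The kilopascal measures elasticity, and softer surfaces have lower values. The labels give no treatment or genetic change for any group, do not name the material of the surface or the time on it, and do not say whether libraries of a group came from separate cultures. The spread that each p-value is set against is thus the spread among libraries, and it may be technical.

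Mitochondria keep their own genome, which encodes a few proteins of the respiratory chain and ATP synthase together with the RNAs of a dedicated ribosome. That ribosome, the mitoribosome, makes only those proteins, and all of its own proteins are encoded in the nucleus, made in the cytosol and imported. Its small subunit holds the 12S rRNA and reads the mRNA, and its large subunit holds the 16S rRNA and forms peptide bonds. Some of its proteins descend from bacterial ribosomal proteins, and others were added in the mitochondrial lineage. A few gene names mislead. MRPS30 and MRPS18A encode proteins of the large subunit, and MRPS36 encodes a component of the alpha-ketoglutarate dehydrogenase complex and no ribosomal protein.

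At 8 kPa, mitoribosome protein genes were on balance higher than at 1 kPa by a small amount, and at 30 kPa they lay between. Of 77 members tested at 8 against 1 kPa, 38 were higher, 0 were lower and 39 did not pass the threshold. The threshold was 0.05 for p-values of edgeR's quasi-likelihood test, adjusted by the Benjamini-Hochberg method over the 17960 genes. Adjusted p-values given without a tool are from that test. In that comparison 8.17% of all tested genes were called higher and 5.60% lower, and of the protein-coding genes 10.1% and 5.51%. The median change of the members was 0.22 on the log2 scale, which is 1.16-fold, beside -0.01 over all tested genes. The changes ran from -0.44 to 0.52 and 67 of 77 were above 0, against 47.6% of all genes. No member reached a 2-fold change in either direction.

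Libraries held 14317437 to 15896607 counts at 1 kPa, 14951116 to 25349320 counts at 8 kPa and 23896536 to 27820973 counts at 30 kPa. All libraries at 1 kPa and 8 kPa replicate 1 were shallow, and none of the other 7 held fewer than 23896536 counts, so depth and stiffness are nearly confounded. Members took 0.229% to 0.267% of the counts at 1 kPa, 0.277% to 0.298% at 8 kPa and 0.256% to 0.286% at 30 kPa. Markers of the line were present, with 8 of 8 adrenergic and 6 of 6 mesenchymal neuroblastoma genes tested. The summed level of the adrenergic list was 588 to 974 CPM (counts scaled to a common library size) at 1 kPa, 861 to 1271 CPM at 8 kPa and 937 to 1075 CPM at 30 kPa. The mesenchymal list summed to 3440 to 3926 CPM at 1 kPa, 3197 to 3774 CPM at 8 kPa and 2839 to 3301 CPM at 30 kPa, so the 30 kPa libraries lay wholly below those at 1 kPa. The fibroblast list (DCN, LUM and PDGFRA, of which 3 of 3 were tested) summed to 635 to 849 CPM at 1 kPa, 564 to 664 CPM at 8 kPa and 560 to 719 CPM at 30 kPa. The epithelial list summed to at most 2.85 CPM and the endothelial list to at most 9.92 CPM, with a median of 0 for CDH5. The part of these lists in the members' changes was not tested. In bulk RNA, fewer cells of a kind and less RNA per cell cannot be told apart.

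The members were summed for each subunit as the genes are named. The 49 MRPL genes together held 1468, 1365, 1499 and 1536 CPM in 1 kPa replicates 1 to 4, then 1720, 1656, 1742 and 1697 CPM in those at 8 kPa, and 1530, 1504, 1583 and 1651 CPM in those at 30 kPa. Every 8 kPa library was above every 1 kPa and every 30 kPa library, and 30 kPa overlapped 1 kPa. The 29 MRPS genes together held 1070, 1006, 1081 and 1089 CPM at 1 kPa, then 1190, 1138, 1206 and 1194 CPM at 8 kPa, and 1115, 1072, 1158 and 1188 CPM at 30 kPa. For this subunit the 8 kPa libraries were again above all those at 1 kPa, but they overlapped 30 kPa. The MRPS sum divided by the MRPL sum was 0.709 to 0.737 at 1 kPa, 0.687 to 0.704 at 8 kPa and 0.713 to 0.731 at 30 kPa. It was lower in every 8 kPa library than in any other library. Library 1 kPa replicate 2 had the lowest sum for both subunits.

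**Figure D1:**
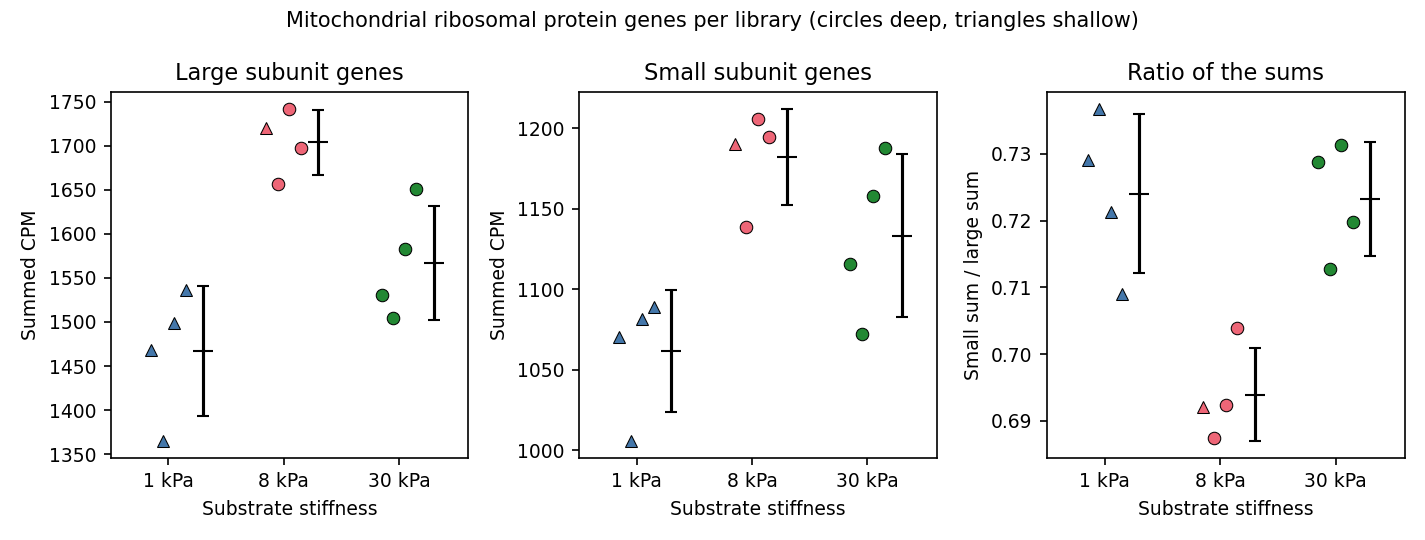
Summed CPM of MRPL genes, summed CPM of MRPS genes and their ratio, by substrate stiffness, with a point for each of the 4 libraries per group, and the mean with its SD. The MRPL sum was 1656 to 1742 CPM at 8 kPa, above the 1365 to 1536 CPM at 1 kPa and the 1504 to 1651 CPM at 30 kPa, and the ratio was lowest at 8 kPa.

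Short stretches of sequence before the start site are printed for genes whose behaviour is described below, because the nuclear genes of the mitoribosome are scattered over the chromosomes and share no operon. Letters run 5′ to 3′ on the strand of the gene, over the 120 bases before the RefSeq start (GRCh38.p14). Capitals mark CCGGAAG, the core bound by ETS-family factors such as GABPA, or its reverse complement, and the element of nuclear respiratory factor 1, searched on both strands as GCGC, any base and TGCGC. MRPS34 (chr16:1773135-1773254, minus strand), MRPL20 (chr1:1407294-1407413, minus strand), MRPL17 (chr11:6683341-6683460, minus strand) and MRPS7 (chr17:75261759-75261878, plus strand) were higher at 8 than at 1 kPa. MRPS31 (chr13:40771191-40771310, minus strand) and MRPS5 (chr2:95121809-95121928, minus strand) did not pass the threshold and are shown for contrast. RefSeq starts can differ from the GENCODE gene bounds given below. The MRPS7 window lies wholly inside those bounds, so its lack of a match does not cover the bases before the GENCODE start.
MRPS34: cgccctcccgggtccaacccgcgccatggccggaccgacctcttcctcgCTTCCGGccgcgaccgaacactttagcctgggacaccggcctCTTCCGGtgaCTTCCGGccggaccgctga
MRPL20: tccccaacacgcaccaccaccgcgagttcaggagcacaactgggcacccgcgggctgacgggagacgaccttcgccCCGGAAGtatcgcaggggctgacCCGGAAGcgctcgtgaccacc
MRPL17: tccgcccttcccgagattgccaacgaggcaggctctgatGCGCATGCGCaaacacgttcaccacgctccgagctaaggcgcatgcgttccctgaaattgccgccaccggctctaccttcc
MRPS7: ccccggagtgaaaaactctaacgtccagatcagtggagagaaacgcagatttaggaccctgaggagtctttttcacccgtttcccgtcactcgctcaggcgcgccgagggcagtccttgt
MRPS31: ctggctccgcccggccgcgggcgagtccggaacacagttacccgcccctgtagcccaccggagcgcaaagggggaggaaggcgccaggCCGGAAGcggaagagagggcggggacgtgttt
MRPS5: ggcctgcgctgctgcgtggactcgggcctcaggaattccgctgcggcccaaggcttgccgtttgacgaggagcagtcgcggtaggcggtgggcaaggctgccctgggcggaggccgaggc

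MRPS34 held 3 ETS matches in this window and MRPL20 held 2, MRPL17 held 1 match of the nuclear respiratory factor 1 element, and MRPS31 held 1 ETS match although it did not pass the threshold. RefSeq gave a promoter window, from 250 bases before to 50 bases after the start, for 69 of 78 members. For some members, MRPS7 and MRPL41 among them, the RefSeq start lay inside the GENCODE gene, so bases before the GENCODE start were missed in part or whole. The ETS core occurred on either strand in 29 of 69 (42.0%) of these windows, against 14.2% of 15843 windows of protein-coding genes. Those 15843 windows were taken whether or not the gene had enough counts to be tested, and shares among tested genes were not taken. The element AAGATGGC, bound by YY1, occurred in 20 of 69 (28.99%) against 3.91% of all, and in 8 windows it accompanied an ETS core without overlapping it. The nuclear respiratory factor 1 element occurred in 8 of 69 (11.6%) against 8.58% of all, the letters CCAAT in 28.99% against 36.4%, and the letters GGGCGG in 60.9% against 58.5%. In 63 windows of cytosolic ribosomal protein genes, the ETS core occurred in 22 (34.9%), so a share above that of all windows was not particular to the members. The YY1 element occurred in 9.52% of those 63 windows and the nuclear respiratory factor 1 element in 11.1%. Among members higher at 8 than at 1 kPa, the ETS core occurred in 20 of 34 windows (58.8%), and among those not past the threshold in 8 of 34 (23.5%). For the YY1 element the order was the other way, with 8 of 34 (23.5%) and 12 of 34 (35.3%). By subunit, the ETS core occurred in 44.4% of 27 MRPS windows and 40.5% of 42 MRPL windows. A match is a run of letters and does not show that a factor binds there.

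Among the genes of the large subunit, 28 of 48 tested MRPL genes were higher and 0 lower at 8 than at 1 kPa, with a median change of 0.23 on the log2 scale. MRPL23, a protein beside the exit tunnel where the new peptide leaves, lies at chr11:1947278-1984522 on the plus strand (GRCh38). It had 9.45, 8.45, 9.15 and 9.08 CPM in the 8 kPa libraries, against 6.08, 5.74, 6.24 and 7.09 CPM in the 1 kPa libraries. Every 8 kPa value was above every 1 kPa value. The change was 0.52 ± 0.102 on the log2 scale (SE, n = 4 each, adjusted p = 0.00979, edgeR's quasi-likelihood test), the largest among the members. MRPL41, a protein of the large subunit without a bacterial counterpart (chr9:137551199-137552555, plus strand), had 21.3, 19.5, 23.5 and 20.3 CPM at 8 kPa, against 15.3, 14.9, 14.4 and 16.1 CPM at 1 kPa. Every 8 kPa library was above every 1 kPa library, with a change of 0.48 ± 0.0789 (adjusted p = 0.00686, edgeR's quasi-likelihood test).

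MRPL17, whose counterpart in bacteria sits near the exit of the tunnel, had 52.9, 47.2, 49.9 and 51.8 CPM at 8 kPa, against 39.7, 38.2, 41.8 and 42.0 CPM at 1 kPa. The groups did not overlap, and the change was 0.32 ± 0.0540 (adjusted p = 0.00720, edgeR's quasi-likelihood test). MRPL3, a core protein near the peptidyl transferase centre (chr3:131462212-131502983, minus strand), had 91.7, 91.0, 92.8 and 94.9 CPM at 8 kPa, against 70.9, 65.9, 78.2 and 80.8 CPM at 1 kPa. All of its 8 kPa libraries lay within a narrow band above those at 1 kPa, with a change of 0.32 ± 0.0671 (adjusted p = 0.0117, edgeR's quasi-likelihood test). MRPL20, an early assembly protein of the bacterial large subunit (chr1:1401908-1407313, minus strand), had 45.9, 44.4, 45.8 and 44.1 CPM at 8 kPa, against 40.0, 33.7, 34.9 and 38.0 CPM at 1 kPa. Again the groups did not overlap, and the change was 0.30 ± 0.0626 (adjusted p = 0.0122, edgeR's quasi-likelihood test).

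Among other large-subunit proteins with a known task, MRPL11, part of the site where translation factors bind, averaged 19.5 ± 0.618 CPM at 8 kPa, against 14.4 ± 2.10 CPM at 1 kPa (n = 4 each, ± SD as for other means), a change of 0.43 ± 0.0959 (adjusted p = 0.0140). MRPL48, a mitochondria-specific protein, averaged 17.3 ± 1.53 CPM at 8 kPa and 12.6 ± 1.61 CPM at 1 kPa, a change of 0.45 ± 0.0948 (adjusted p = 0.0122). MRPL58 is a release factor that frees peptides from stalled ribosomes and was later built into the subunit. It averaged 28.99 ± 0.766 CPM at 8 kPa and 24.7 ± 1.46 CPM at 1 kPa, a change of 0.23 ± 0.0623 (adjusted p = 0.0284). MRPL24, with MRPS21 the highest member per kilobase of transcript (104 and 105 CPM per kilobase), averaged 105 ± 7.88 CPM at 8 kPa and 97.9 ± 6.34 CPM at 1 kPa and did not pass the threshold (adjusted p = 0.338). MRPL33, the counterpart of a small bacterial protein and the next highest MRPL gene per kilobase, averaged 50.8 ± 4.52 CPM at 8 kPa and 41.2 ± 2.34 CPM at 1 kPa, a change of 0.30 ± 0.0746 (adjusted p = 0.0202). These p-values are from edgeR's quasi-likelihood test.

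Of the 29 tested MRPS genes, 10 were higher at 8 than at 1 kPa and 0 lower, with a median change of 0.19 on the log2 scale. Placed by structure in place of name, the counts were 10 of 26 small-subunit and 28 of 50 large-subunit genes. The MRPS median minus the MRPL median was -0.041 on the log2 scale. Over libraries of a group, the mean log2 level of MRPS genes minus that of MRPL genes had a pooled SD of 0.018. That SD is between single libraries and of means, so it is not an error of the difference of medians. MRPS7, a protein that nucleates assembly of the head of the bacterial small subunit (chr17:75261674-75266373, plus strand), had 54.7, 52.8, 52.0 and 46.2 CPM at 8 kPa, against 39.3, 35.9, 41.2 and 41.5 CPM at 1 kPa. The groups did not overlap, and the change of 0.38 ± 0.0624 had the smallest adjusted p of the members, 0.00656 (edgeR's quasi-likelihood test). MRPS34, a mitochondria-specific protein (chr16:1771890-1773155, minus strand), had 33.3, 34.9, 35.7 and 33.4 CPM at 8 kPa, against 26.8, 21.0, 28.03 and 27.2 CPM at 1 kPa. Its 1 kPa replicate 2 stood below the others, and the lowest 8 kPa library was still above the highest 1 kPa library. The change was 0.41 ± 0.0863 (adjusted p = 0.0118, edgeR's quasi-likelihood test).

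MRPS12, the counterpart of a bacterial protein of the decoding centre, had 12.5, 11.3, 10.9 and 12.3 CPM at 8 kPa, against 9.78, 7.61, 8.39 and 9.88 CPM at 1 kPa. Every 8 kPa library was above every 1 kPa library, with a change of 0.39 ± 0.0930 (adjusted p = 0.0174, edgeR's quasi-likelihood test). MRPS10 averaged 65.4 ± 2.18 CPM at 8 kPa and 55.3 ± 2.68 CPM at 1 kPa (adjusted p = 0.0167), and MRPS23 averaged 76.8 ± 3.68 CPM at 8 kPa and 65.2 ± 4.09 CPM at 1 kPa (adjusted p = 0.0182). The gene with the highest CPM of all members was MRPS21, whose bacterial counterpart is a small protein of the small subunit. It averaged 166 ± 4.34 CPM at 8 kPa and 144 ± 5.46 CPM at 1 kPa, a change of 0.20 ± 0.0582 (adjusted p = 0.0352). MRPS22, a mitochondria-specific protein and the next highest MRPS gene per kilobase, averaged 60.1 ± 3.19 CPM at 8 kPa and 57.5 ± 3.26 CPM at 1 kPa (adjusted p = 0.457). These adjusted p-values come from edgeR's quasi-likelihood test.

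The 3 MRPS18 paralogues did not pass the threshold. MRPS18C, the counterpart of the bacterial protein, averaged 26.0 ± 1.72 CPM at 8 kPa and 23.0 ± 3.28 CPM at 1 kPa. MRPS18B averaged 37.0 ± 0.959 CPM at 8 kPa and 32.4 ± 3.43 CPM at 1 kPa, and MRPS18A, of the large subunit, averaged 14.8 ± 2.01 CPM at 8 kPa and 13.4 ± 0.732 CPM at 1 kPa. Their adjusted p-values in edgeR's quasi-likelihood test were 0.211, 0.0952 and 0.321 for C, B and A, and the log2 changes were 0.18, 0.19 and 0.14. MRPS5, near the channel where mRNA enters in bacteria, averaged 36.8 ± 2.25 CPM at 8 kPa and 38.6 ± 2.53 CPM at 1 kPa, a change of -0.07 ± 0.0704. MRPS31 averaged 21.1 ± 0.506 CPM at 8 kPa and 22.2 ± 0.837 CPM at 1 kPa, a change of -0.07 ± 0.0625. For both, the values of the groups overlapped.

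Of the 10 members with a change below 0, none passed the threshold. MRPS25 was the most abundant of these by CPM, with 78.3, 83.4, 77.9 and 96.4 CPM at 8 kPa, against 95.9, 110, 89.4 and 85.0 CPM at 1 kPa. The groups overlapped, and the change of -0.18 ± 0.0798 had an adjusted p of 0.148 in edgeR's quasi-likelihood test. MRPL38 had 3.54, 3.86, 2.54 and 5.32 CPM at 8 kPa, against 4.82, 5.599, 5.92 and 4.49 CPM at 1 kPa (change -0.44 ± 0.186, adjusted p = 0.120). MRPL46 averaged 3.92 ± 0.770 CPM at 8 kPa and 5.14 ± 1.08 CPM at 1 kPa, and MRPL2, a protein of the peptidyl transferase region, averaged 1.13 ± 0.170 CPM at 8 kPa and 1.46 ± 0.177 CPM at 1 kPa. At so few counts the SE of the change was 0.172 for MRPL46 and 0.208 for MRPL2 on the log2 scale, close to the members' median change of 0.22, so a change of that size was not detectable in them at this depth. The same holds for MRPL12, with 1.92 ± 0.146 CPM at 8 kPa and 1.80 ± 0.317 CPM at 1 kPa (change 0.10 ± 0.199), and for MRPS24, with 1.47 ± 0.404 CPM at 8 kPa and 1.41 ± 0.385 CPM at 1 kPa (change 0.09 ± 0.268). MRPS17 averaged 4.69 ± 0.682 CPM at 8 kPa and 3.83 ± 0.325 CPM at 1 kPa, a change of 0.28 ± 0.138 that did not pass the threshold (adjusted p = 0.191, edgeR's quasi-likelihood test).

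**Figure D2:**
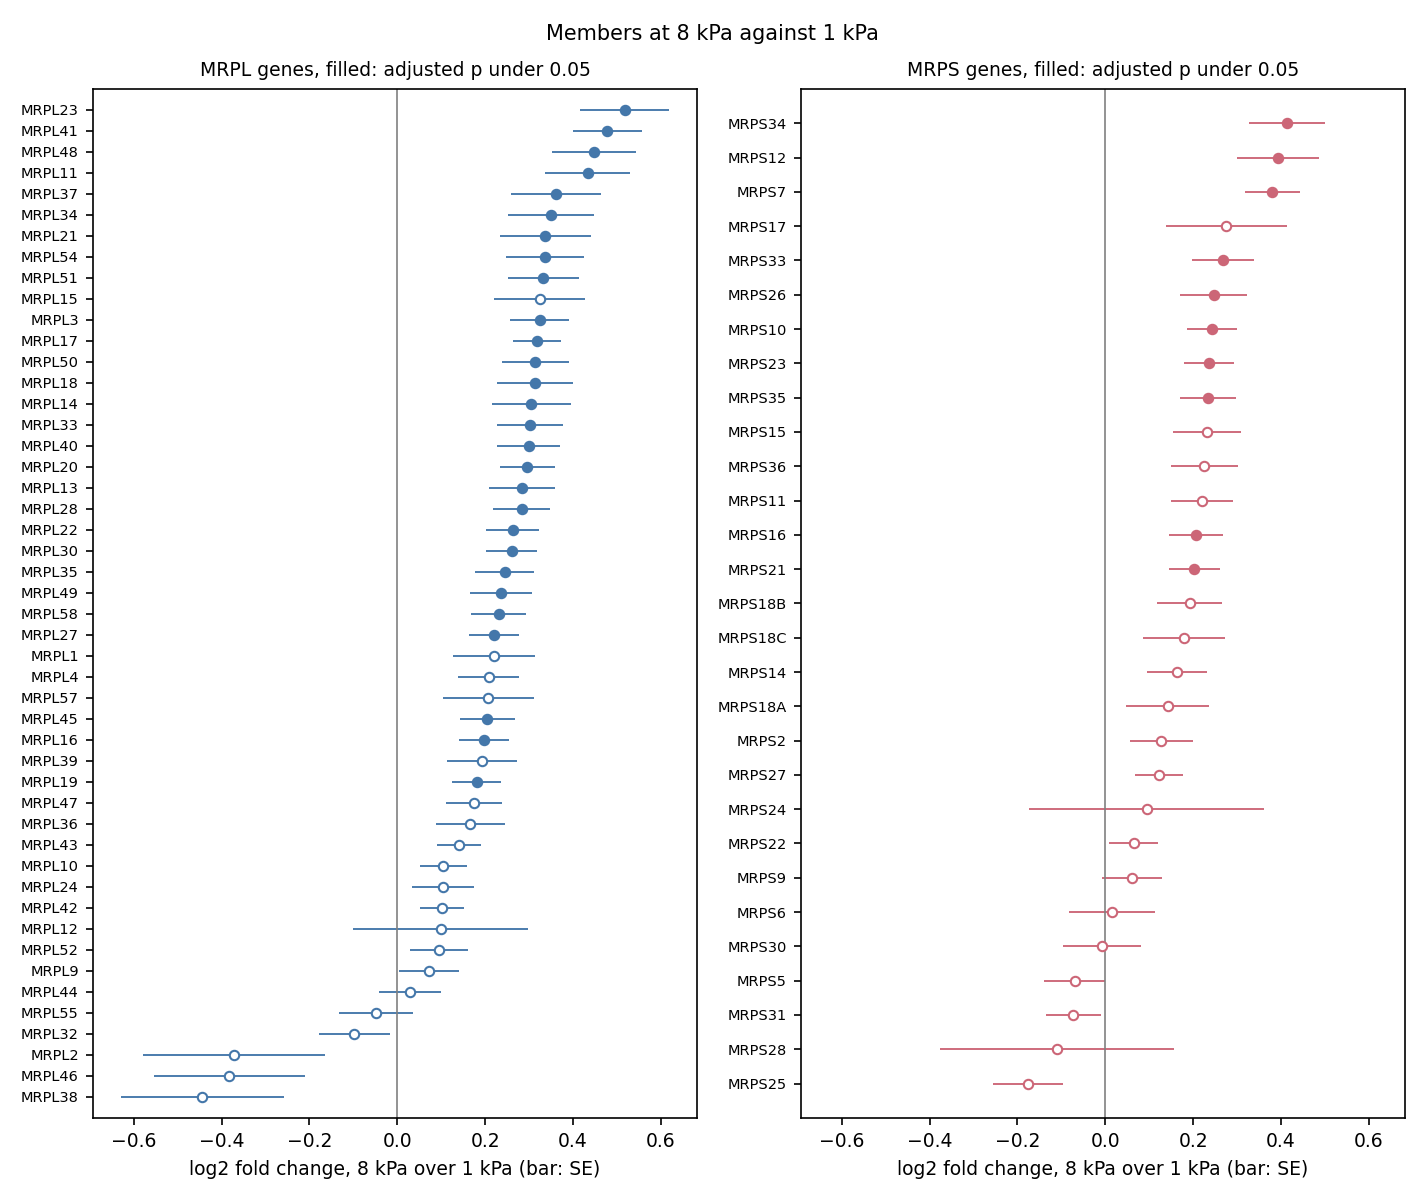
Log2 fold change of each tested member at 8 kPa over 1 kPa, with its SE as a bar, MRPL genes and MRPS genes in separate panels and filled points for genes with an adjusted p under 0.05. Filled points all lie above 0, from 0.18 to 0.52, and the lowest open points are MRPL38, MRPL46 and MRPL2.

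For 38 members the libraries at 8 kPa lay wholly above those at 1 kPa, and for 0 members wholly below, where the background over all genes was 9.41% above and 7.36% below. Without adjustment, 50 members were higher and 3 lower at a p under 0.05, against 16.6% and 14.6% of all genes. The number of calls depended on which libraries were used, for members and over all genes alike. At 8 kPa, leaving out replicate 3 gave 9 members and 1.94% of all genes higher, and leaving out replicate 1 gave 13 members and 2.73% of all genes. At 1 kPa, leaving out replicate 2 gave 17 members and 3.91% of all genes, replicate 3 gave 23 and 4.55%, and replicate 1 gave 24 and 5.42%. The members' median stayed between 0.18 and 0.25 on the log2 scale in the 12 fits that left out 1 library. Of the 38 members called, 7 (MRPL3, MRPL17, MRPL20, MRPL23, MRPL41, MRPS7 and MRPS34) were called in each of the 12 fits that left out 1 library. The share of all genes kept in this way was not counted. With the depth class as a term, 0 members and 0 of all genes were called at 8 against 1 kPa, 40 members were higher without adjustment, and the members' median was 0.23. Within the shallow libraries the median was 0.24 with 66 of 77 changes above 0, from the single shallow 8 kPa library. That library was above all 1 kPa libraries for 55 of 77 members and for 29.9% of all genes.

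At 30 against 8 kPa no member and no other gene passed the threshold in edgeR's quasi-likelihood test, so the share called over all genes was 0 in each direction. Without adjustment, 24 members were lower and 1 was higher at a p under 0.05, against 9.57% and 8.35% of all genes. The median change was -0.10 on the log2 scale, -0.08 for MRPS and -0.13 for MRPL genes, with 13 of 77 changes above 0, beside a median of 0.00 and 50.9% of changes above 0 over all genes. The groups did not overlap for 16 members that were lower and 1 that was higher, where the background was 6.50% and 4.79%. Without 8 kPa replicate 4, 4 of 77 members were lower and 1 was higher, where 484 of all 18229 genes tested were lower and 542 (2.97%) higher. With DESeq2 and all libraries, 3 of 77 members were called lower, namely MRPL13, MRPL40 and MRPL58, and 0 higher, where 286 of all 17960 genes were lower and 128 higher.

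MRPL58 had 23.4, 23.5, 25.1 and 26.5 CPM in the 30 kPa libraries, against 29.6, 28.8, 29.6 and 27.99 CPM in the 8 kPa libraries. The highest 30 kPa value stayed under the lowest 8 kPa value, with a change of -0.23 ± 0.0606 (adjusted p = 0.134 in edgeR's quasi-likelihood test, 0.0329 with DESeq2). MRPL40 averaged 19.8 ± 1.52 CPM at 30 kPa and 23.8 ± 0.607 CPM at 8 kPa, and MRPL13 averaged 28.4 ± 3.00 CPM at 30 kPa and 34.4 ± 1.86 CPM at 8 kPa, with adjusted p-values of 0.134 and 0.139 in edgeR's quasi-likelihood test. MRPS7 had 43.3, 44.3, 45.2 and 45.8 CPM at 30 kPa, against 54.7, 52.8, 52.0 and 46.2 CPM at 8 kPa (change -0.20 ± 0.0608, adjusted p = 0.152). Those groups did not overlap, although 8 kPa replicate 4 was close to the highest 30 kPa library. Of the 13 members with a change above 0, MRPS24 (0.30 ± 0.237) and MRPL38 (0.29 ± 0.178) had the largest changes, both at few counts and with overlapping groups. MRPS25 was the 1 member higher at an unadjusted p under 0.05, with 99.1, 97.9, 99.2 and 98.1 CPM at 30 kPa, against 78.3, 83.4, 77.9 and 96.4 CPM at 8 kPa. Its change was 0.23 ± 0.0790 (adjusted p = 0.179), and MRPS36, the gene that encodes no ribosomal protein, averaged 26.0 ± 1.58 CPM at 30 kPa and 30.2 ± 2.24 CPM at 8 kPa (adjusted p = 0.180).

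MRPL11 averaged 17.1 ± 1.45 CPM at 30 kPa and 19.5 ± 0.618 CPM at 8 kPa, and MRPS18C averaged 22.5 ± 1.55 CPM at 30 kPa and 26.0 ± 1.72 CPM at 8 kPa. For both, the 30 kPa libraries lay wholly below those at 8 kPa, with changes of -0.19 ± 0.0915 and -0.21 ± 0.0915 that did not pass the threshold (adjusted p = 0.293 and 0.247, edgeR's quasi-likelihood test). The groups overlapped for MRPL3, MRPS12, MRPS18A, MRPS18B, MRPS5, MRPL2 and MRPL12, with adjusted p-values of 0.462 to 0.931. Their log2 changes were -0.10 for both MRPL3 and MRPS12, -0.11 for MRPS18A, -0.06 for MRPS18B, 0.05 for MRPS5, -0.04 for MRPL2 and -0.12 for MRPL12. The groups also overlapped for the highest members per kilobase and for MRPS17, with changes of -0.11 for MRPS21, -0.10 for MRPS22, 0.01 for MRPL24, -0.16 for MRPL33 and -0.17 for MRPS17.

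At 30 against 1 kPa, 2 of 77 members were higher and 0 lower, where 1.10% of all genes were called higher and 1.33% lower. The pair was MRPL23 and MRPL30. MRPL23 had 7.84, 7.74, 9.14 and 9.56 CPM at 30 kPa, against 6.08, 5.74, 6.24 and 7.09 CPM at 1 kPa, and the groups did not overlap. Its change was 0.45 ± 0.101 (adjusted p = 0.0384, edgeR's quasi-likelihood test). MRPL30, the counterpart of a small bacterial large-subunit protein (chr2:99181079-99197626, plus strand), had 34.5, 33.9, 35.2 and 35.9 CPM at 30 kPa, against 28.7, 27.1, 29.98 and 30.9 CPM at 1 kPa. Every 30 kPa library was above every 1 kPa library, and the change was 0.26 ± 0.0573 (adjusted p = 0.0347, edgeR's quasi-likelihood test).

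The median over the members at 30 against 1 kPa was 0.09 on the log2 scale, 0.10 for MRPS and 0.09 for MRPL genes, and it was 0.05 without 1 kPa replicate 2. Leaving out 1 kPa replicate 1, 2 or 3, 8 kPa replicate 3 or 30 kPa replicate 3 or 4 gave 0 calls among members, where 0.0769% to 0.833% of all genes were called higher. Leaving out 30 kPa replicate 1 or 2 gave 1, where the shares were 0.570% and 0.472%. A term for depth class left 0 members and 0 of all genes called, with a members' median of 0.12. Library size alone as the scaling gave 0 members with a median of 0.11 and 0.757% of all genes, and a fit of only the groups compared gave 0 members with a median of 0.09 and 0.814% of all genes. Without adjustment 20 members were higher and 0 lower, against 9.76% and 9.13% of all genes. The groups did not overlap for 11 members, all higher at 30 kPa, where the background was 5.33% higher and 6.06% lower. MRPL3 averaged 86.6 ± 6.30 CPM at 30 kPa and 74.0 ± 6.81 CPM at 1 kPa (adjusted p = 0.0857), and MRPS12 averaged 10.9 ± 0.360 CPM at 30 kPa and 8.91 ± 1.10 CPM at 1 kPa (adjusted p = 0.105, edgeR's quasi-likelihood test for both).

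MRPS7 averaged 44.7 ± 1.07 CPM at 30 kPa and 39.5 ± 2.56 CPM at 1 kPa, with groups that did not overlap and a change of 0.18 ± 0.0623 (adjusted p = 0.138, edgeR's quasi-likelihood test). MRPL11 averaged 17.1 ± 1.45 CPM at 30 kPa and 14.4 ± 2.10 CPM at 1 kPa, and its groups overlapped (change 0.24 ± 0.0958, adjusted p = 0.183). MRPL58 averaged 24.6 ± 1.46 CPM at 30 kPa and 24.7 ± 1.46 CPM at 1 kPa. The changes were -0.02 for MRPS5, -0.42 for MRPL2, -0.03 for MRPL12, 0.03 for MRPS18A, 0.13 for MRPS18B and -0.03 for MRPS18C, and the groups overlapped for each of them. Among the members highest and lowest per kilobase, the changes were 0.09 for MRPS21, -0.03 for MRPS22, 0.11 for MRPL24, 0.14 for MRPL33, 0.10 for MRPS17 and 0.40 for MRPS24, again with overlapping groups. From MRPL58 on, the adjusted p-values of these members ran from 0.293 to 0.987 in edgeR's quasi-likelihood test.

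Because the comparisons share their groups, the order of the 3 stiffnesses was read from the group means of each member. The mean was highest at 8 kPa for 62 of 77 members, 41 of 48 MRPL and 21 of 29 MRPS genes, and for 35.3% of all genes. It ran 1 kPa, 30 kPa, 8 kPa from low to high for 56 of 77 members, against 24.1% of all genes. When 8 kPa was tested against the mean log2 level of the other stiffnesses, 24 members were higher and 0 lower, where 4.42% of all genes were called higher and 2.66% lower. Of the members called, 21 were MRPL and 3 MRPS genes, the last being MRPS7, MRPS10 and MRPS34. MRPL41 had the largest departure, 0.36 ± 0.0658 (adjusted p = 0.0231, edgeR's quasi-likelihood test).

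With the depth class as a term, 15 members and 4.02% of all genes were called higher in the test of 8 kPa against the mean of the other stiffnesses. Leaving out either of 8 kPa replicates 1 and 3 or either of 30 kPa replicates 1 and 2 gave a count of 0 members, and in those fits 0 of all genes were called higher and at most 1 lower. Leaving out 8 kPa replicate 2 gave 3 members and 0.708% of all genes, and 30 kPa replicate 3 gave 4 and 0.977%. Leaving out 1 kPa replicate 3 gave 10 members and 1.61% of all genes, and 1 kPa replicate 1 gave 11 and 1.89%. The members' median stayed between 0.13 and 0.17 on the log2 scale in the 12 fits that left out 1 library, beside 0.15 with all libraries.

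**Figure D3:**
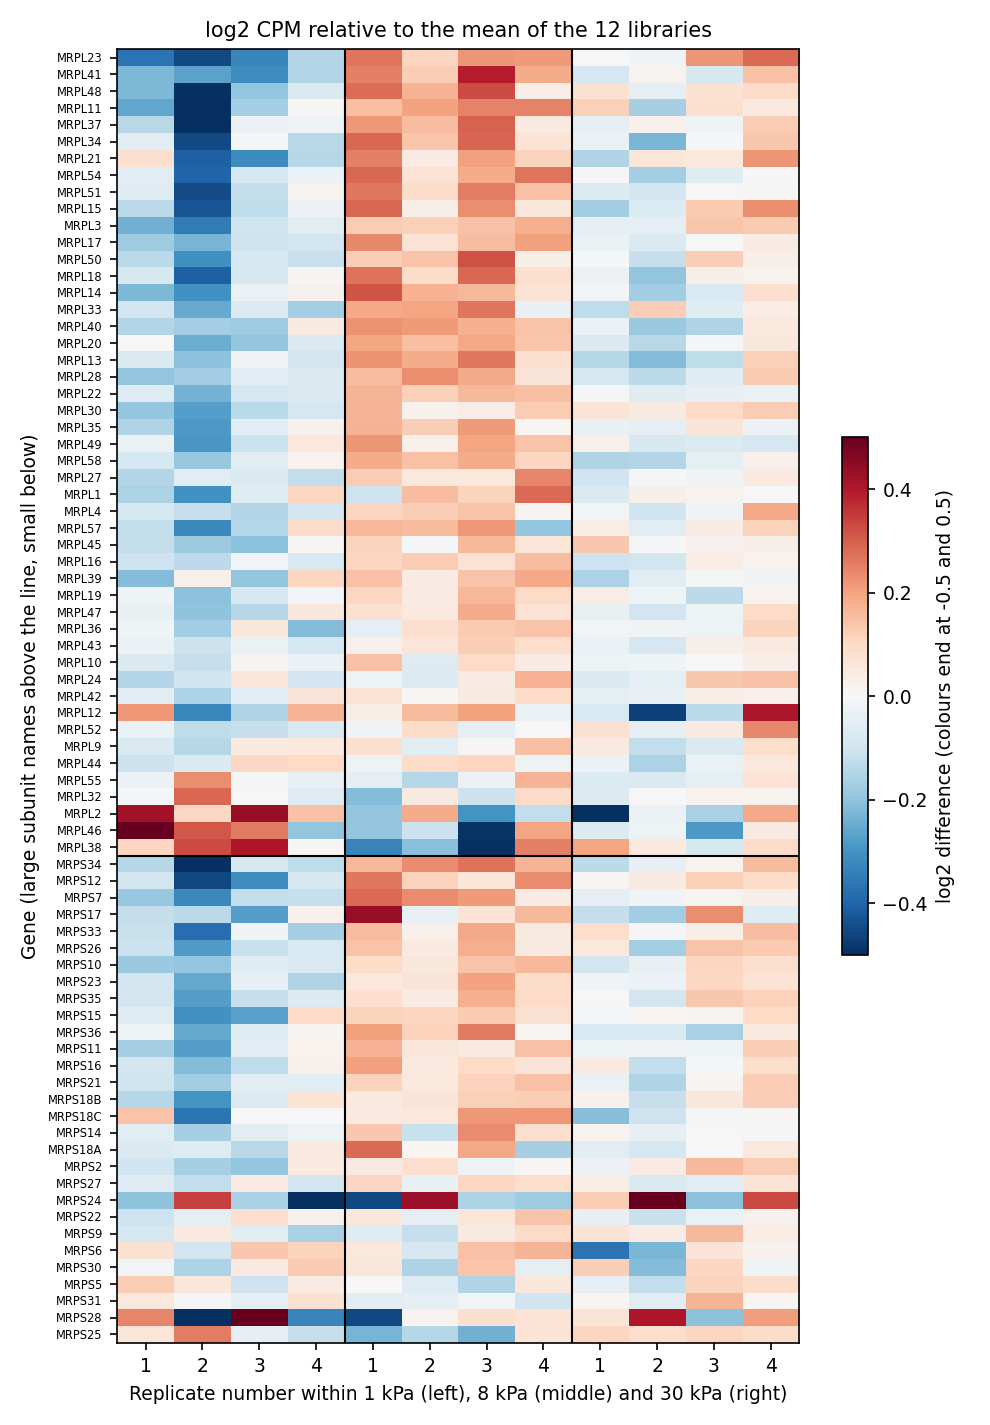
Log2 CPM of each tested member in each of the 12 libraries, as the difference from the mean of those libraries, with the libraries in columns from 1 kPa through 8 kPa to 30 kPa. Most rows are highest in the 8 kPa columns, with the mean highest at 8 kPa for 62 of 77 members, and 1 kPa replicate 2 is low for most rows.

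Members also moved together between libraries of 1 stiffness. After subtraction of group means, the median correlation between 2 members over the 12 libraries was 0.38 (Pearson's r), a description over points that share library depth and scaling. No such value was taken for other genes, so it is not shown to be particular to the members. The median level of the members relative to the mean library was -0.20 in 1 kPa replicate 2 and ran from -0.09 to -0.03 in the other 1 kPa libraries on the log2 scale. At 8 kPa it lay between 0.06 and 0.15, and at 30 kPa between -0.06 and 0.07. The median level of the cytosolic ribosomal protein genes was also lowest in 1 kPa replicate 2, at -0.49.

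Transcripts of the members are short, with a median of 1532 bases against 3480 bases over tested protein-coding genes (longest protein-coding transcript of GENCODE 29). The correlation across genes of a library's level with transcript length was 0.05 to 0.16 at 1 kPa, -0.16 to -0.06 at 8 kPa and -0.17 to 0.12 at 30 kPa, so 8 kPa libraries were shifted towards short transcripts relative to 1 kPa libraries. With an offset for length and GC content in the fit, 35 members were higher at 8 against 1 kPa and their median change was 0.21. Across the 77 members the change at 8 against 1 kPa had a Spearman correlation of -0.07 with transcript length, 0.07 with GC content and 0.03 with mean level, given as a description.

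Genes with related tasks were counted for comparison, where 8.17% of all genes were called higher at 8 than at 1 kPa and 5.60% lower. Of the 5 subunit genes with other names, 2 were higher at 8 than at 1 kPa and 0 lower, with a median change of 0.25. The change was above 0 for 4 of them and below 0 for PTCD3 (-0.12), which was lower only without adjustment, at a p under 0.05. AURKAIP1, of the small subunit, averaged 35.0 ± 1.57 CPM at 8 kPa and 27.5 ± 1.67 CPM at 1 kPa (adjusted p = 0.0104), and GADD45GIP1, of the large subunit, averaged 24.8 ± 1.89 CPM at 8 kPa and 19.7 ± 2.20 CPM at 1 kPa (adjusted p = 0.0495). CHCHD1, also of the small subunit, averaged 20.7 ± 2.05 CPM at 8 kPa and 17.4 ± 1.74 CPM at 1 kPa (adjusted p = 0.0769). DAP3, a GTP-binding protein of the small subunit, averaged 163 ± 6.85 CPM at 8 kPa and 156 ± 7.69 CPM at 1 kPa and did not pass (adjusted p = 0.427, edgeR's quasi-likelihood test throughout).

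Of 26 genes for mitoribosome assembly and rRNA modification, 2 were higher (RCC1L and ERAL1) and 0 lower, and the median change was 0.00. For this and the next lists the shares over all genes were 8.17% higher and 5.60% lower, so 2 of 26 was near the share. ERAL1, a chaperone of the 12S rRNA, averaged 31.8 ± 1.58 CPM at 8 kPa and 27.6 ± 1.46 CPM at 1 kPa. Of 16 translation factors and genes of mitochondrial mRNA stability, 4 were higher and 0 lower, with a median of 0.08. MTRF1L, a release factor, averaged 29.6 ± 3.40 CPM at 8 kPa and 22.4 ± 2.70 CPM at 1 kPa (adjusted p = 0.0180, edgeR's quasi-likelihood test). TUFM, the elongation factor that delivers tRNA, averaged 141 ± 1.56 CPM at 8 kPa and 126 ± 3.09 CPM at 1 kPa, and SLIRP, which with LRPPRC protects mitochondrial mRNA, averaged 36.4 ± 0.383 CPM at 8 kPa and 28.7 ± 3.32 CPM at 1 kPa. Of 17 mitochondrial aminoacyl-tRNA synthetases, 2 were higher (RARS2 and NARS2) and 2 lower (SARS2 and HARS2), with a median of 0.05. Of 9 genes of mitochondrial DNA transcription and replication, 3 were higher (SSBP1, TWNK and TFAM) and 2 lower (POLG2 and POLG), with a median of -0.04.

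Beside 8.17% of all genes, 1 of 9 regulators of nuclear genes for mitochondria was higher at 8 than at 1 kPa. This was MYC, with 19.8 ± 2.28 CPM at 8 kPa and 12.9 ± 2.75 CPM at 1 kPa (change 0.61, adjusted p = 0.0164), and with 22.7 ± 3.11 CPM at 30 kPa (change against 1 kPa 0.81, adjusted p = 0.0125, edgeR's quasi-likelihood test). The mean of MYC was highest at 30 kPa, but at 30 against 8 kPa 0 of the 9 regulators were called, and 0 were higher at an unadjusted p under 0.05. The part of MYC in the members' changes was not tested. The regulators NRF1, YY1 and GABPB1, whose motifs or partner's motif are given above, did not pass the threshold at 8 against 1 kPa (adjusted p = 0.719, 0.365 and 0.127, edgeR's quasi-likelihood test). GABPA and ESRRA did not pass it either. Without adjustment 3 of the 9 regulators (MYC, ESRRA and GABPB1) were higher and 0 lower at a p under 0.05, beside 16.6% and 14.6% of all genes. NRF1 averaged 15.9 ± 1.32 CPM at 8 kPa and 16.4 ± 0.979 CPM at 1 kPa, YY1 averaged 132 ± 4.21 CPM at 8 kPa and 125 ± 9.95 CPM at 1 kPa, and GABPB1, a partner of GABPA, averaged 19.3 ± 0.664 CPM at 8 kPa and 17.4 ± 0.908 CPM at 1 kPa.

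The mRNAs that the mitoribosome translates had changes of the opposite sign. Of the 13 protein genes of the mitochondrial genome, 0 were higher and 7 lower at 8 than at 1 kPa, beside 8.17% and 5.60% of all genes. Their median change was -0.38, and all 13 changes were below 0. The smallest p-values were those of MT-ND4L and MT-ND3, subunits of complex I, with changes of -0.59 and -0.53 (adjusted p = 0.0165 and 0.0167, edgeR's quasi-likelihood test). MT-CYB, cytochrome b, averaged 7341 ± 706 CPM at 8 kPa and 10194 ± 1462 CPM at 1 kPa (change -0.47, adjusted p = 0.0169, edgeR's quasi-likelihood test). Their summed level was 80427 to 96297 CPM at 8 kPa, against 91599 to 127531 CPM at 1 kPa, so the groups overlapped in the sum. The mitochondrial rRNAs did not pass the threshold, with changes of -0.26 for MT-RNR2 (16S) and -0.22 for MT-RNR1 (12S). At 30 against 8 kPa all 13 protein genes had changes above 0, with a median of 0.26, and none passed the threshold.

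Proteins of the cytosolic ribosome are encoded by a separate gene family. Of 78 such genes 68 were higher at 8 than at 1 kPa and 0 lower, beside 8.17% and 5.60% of all genes. Their median change was 0.42 on the log2 scale, beside 0.22 for the members. Their summed level was 35480 to 40292 CPM at 8 kPa and 23166 to 32131 CPM at 1 kPa, and 1 kPa replicate 2 was again the lowest. Whether the members' changes depend on those of the cytosolic list was not tested.

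**Figure D4:**
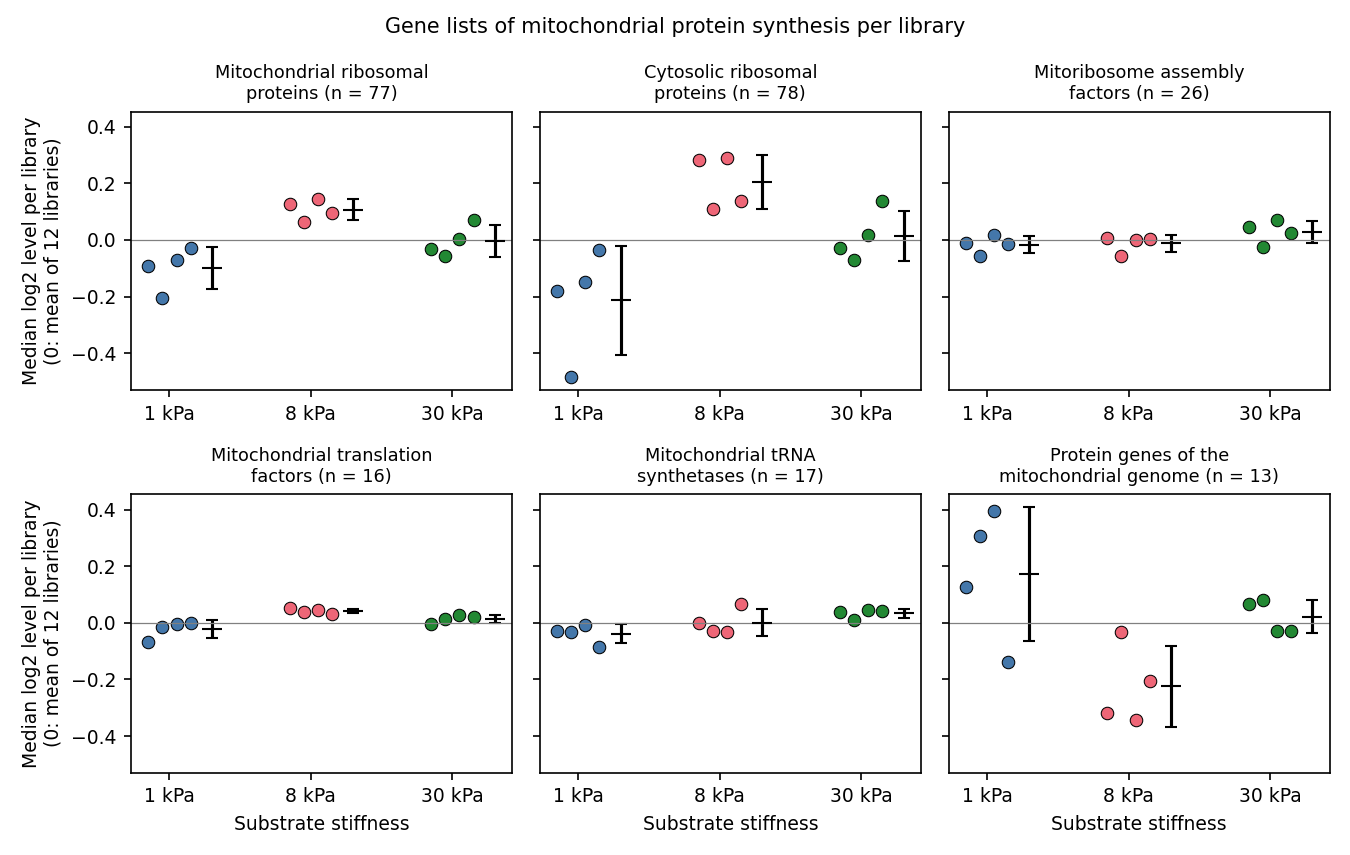
Median log2 level of each gene list per library, relative to the mean of the 12 libraries, with a point for each library at 1, 8 and 30 kPa. The members ran from -0.20 to -0.03 at 1 kPa, 0.06 to 0.15 at 8 kPa and -0.06 to 0.07 at 30 kPa, while protein genes of the mitochondrial genome ran from -0.14 to 0.40 at 1 kPa, -0.34 to -0.03 at 8 kPa and -0.03 to 0.08 at 30 kPa.

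The lowest values among the members lay where genes overlap. Levels were compared between genes as mean CPM per kilobase of the longest protein-coding transcript. MRPL53 had a count of 0 in all 12 libraries, where a count of 0 allows up to 0.107 to 0.215 CPM per library (3 counts, counting error only). It shares 45.2% of its exon bases with CCDC142 on the same strand. The next lowest were MRPL2 at 0.773, MRPL12 at 1.78, MRPS24 at 2.13, MRPS17 at 2.28, MRPL38 at 2.42 and MRPS28 at 2.52 CPM per kilobase.

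MRPL12, the stalk protein that recruits translation factors, shares 68.2% of its exon bases with a same-strand gene, and MRPS24, MRPS17, MRPL38 and MRPS28 share 23.2%, 27.0%, 37.5% and 35.8%. Of the 7 lowest members 6 shared more than 20% in this way, the exception being MRPL2, which shares 14.7% with a gene on the opposite strand. The 7 members over 20% had a median of 2.28 CPM per kilobase, against 20.2 for the other 71. MRPL33 was the one high member among them, with 21.1% shared and 88.4 CPM per kilobase, and MRPL30, just under that limit at 19.5%, had 12.7. The neighbours did not always have counts, and AC139530.2 beside MRPL12 and URGCP-MRPS24 beside MRPS24 had 0 counts. Such a count does not show that a neighbour is silent, since the neighbour shares those exon bases with the member. No source used here gives the strand setting or the handling of reads that fit more than 1 gene, so levels of these members, and reads of genes with an antisense partner, are uncertain. In addition 34 members have annotated pseudogenes, up to 8 for MRPS21, with which reads can be shared.

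**Figure D5:**
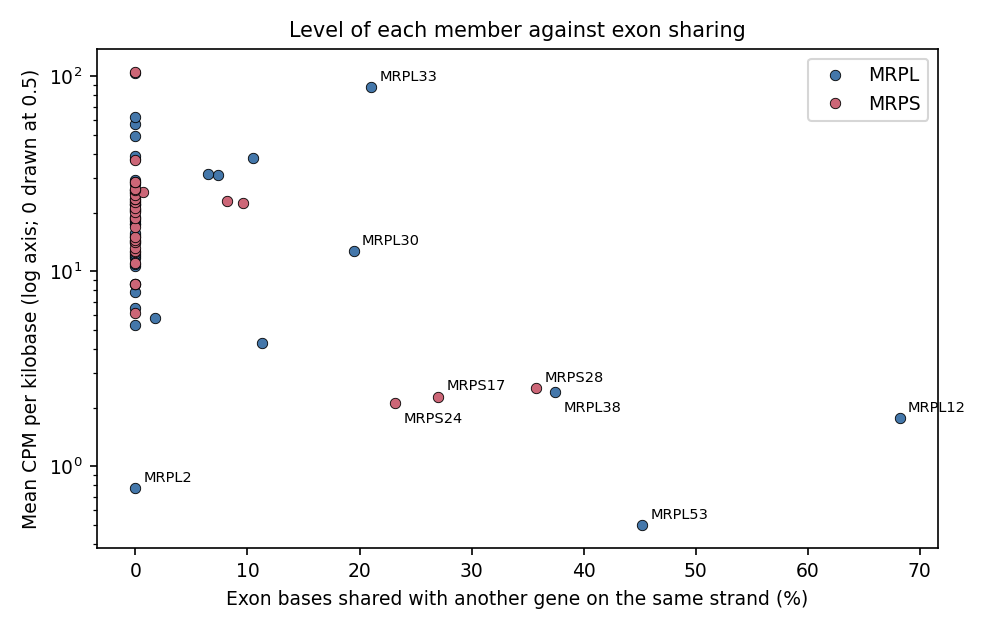
Mean CPM per kilobase over the 12 libraries (log axis) of each of the 78 members against the share of its exon bases that another gene on the same strand also holds. The 7 members beyond 20% have a median of 2.28 CPM per kilobase against 20.2 for the others, with MRPL33 at 88.4 as the exception. MRPL53 had 0 counts and is drawn at the lower edge.

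Many members start next to another gene. A protein-coding gene starting in the opposite direction within 1000 bases was found for 17 of 78 members (21.8%), against 7.38% of 19890 protein-coding genes. Only 13628 of those genes were tested, against 77 of the 78 members, and the share among tested genes was not taken. Of the 15 such neighbours that were tested, 3 were higher at 8 than at 1 kPa and 1 was lower, beside 8.17% and 5.60% of all genes. NDUFS6, a subunit of respiratory complex I that starts 34 bases from MRPL36, was higher with a log2 change of 0.34 (adjusted p = 0.0187), where MRPL36 itself did not pass (adjusted p = 0.168), and TCP1, a subunit of the cytosolic chaperonin that starts 63 bases from MRPL18, was higher with 0.21 (adjusted p = 0.0324). SKA3, a kinetochore gene 43 bases from MRPL57, was higher with 0.66 (adjusted p = 0.0210), where MRPL57 itself did not pass (adjusted p = 0.186). PNPLA7, which starts 665 bases from MRPL41, was lower with a change of -0.64 (adjusted p = 0.0169, edgeR's quasi-likelihood test for all neighbours), while MRPL41 was higher. MRPL46 and MRPS11 start 34 bases apart as a pair of members, and their changes were -0.38 and 0.22, neither past the threshold.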

How the data were processed

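The authors deposited raw counts per gene for the 12 libraries, under Ensembl identifiers. The submitters' processing notes name HISAT2 and GRCh38. The counting tool, annotation and strand setting are not given in the sources used here. Of 60664 genes, 60463 were matched by identifier to a gene table for symbols. Positions, lengths and exon overlaps came from GENCODE 29 (GRCh38), and promoters from RefSeq (GRCh38.p14).

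The analysis used edgeR 4.0.16 in R 4.3.3. filterByExpr (minimum count 10) left 17960 genes, holding at least 99.9% of each library's counts. TMM scaling was used, all 12 libraries were fitted with stiffness as the only term, and groups were compared by the quasi-likelihood F-test with Benjamini-Hochberg adjustment over the tested genes (threshold 0.05). The biological coefficient of variation was 0.0966. The SE of a log2 fold change is its size divided by the root of F. Levels are CPM after TMM. The steps were tested on simulated data.

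Library totals ran from 14317437 to 27820973 counts. Members and lists were chosen with earlier results of these data known, and structural classes were written after the values were seen. Genes were named by a rule: the 5 called members of each subunit with the smallest p, 11 members in every comparison (MRPS12, MRPS5, MRPS7, MRPL2, MRPL3, MRPL11, MRPL12, MRPS18A, MRPS18B, MRPS18C and MRPL58), the 2 highest and 2 lowest per kilobase in each subunit, the 3 with the smallest p where none passed, and up to 3 genes of each related list, given here mainly at 8 against 1 kPa. Others (MRPL48, MRPS25 at 8 against 1 kPa, MRPS31, MRPL38, MRPL46, the divergent neighbours, NRF1, YY1, GABPA, GABPB1, HARS2, POLG, TFAM, DAP3 and PTCD3 at 8 against 1 kPa) were chosen after their values were seen. Alternatives were other scalings, filters, DESeq2 1.42.0, limma-voom (limma 3.58.1), the compared groups alone, a depth class term, libraries of 1 depth class, a length and GC offset, a replicate block, and leaving out each library. A further list of cell type markers is not reported here.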

Additional observations from a re-analysis of the deposited data

Results flagged for a closer look

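In 99 groups of 4 libraries checked for a value far from the others by Dixon's criterion, 2 stood out, and chance alone gives about 1 in 20. At 1 kPa, MRPL40 had 1 library at 21.5 CPM above the other 3. At 1 kPa, MRPS34 had 1 library, replicate 2, at 21.0 CPM below the other 3.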

How the results depend on the processing

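At 8 against 1 kPa, 18 members were higher with only the groups compared, 0 with the depth class as a term and 0 within a depth class, against 38 with all libraries, where 4.02%, 0 and 0 of all genes were higher. The small minus large median was -0.0707 (log2) with the depth term and -0.0711 within a depth class, against -0.041. At 30 against 8 kPa, 3 members and 286 of all genes were lower with DESeq2, against 0 of either. At 30 against 1 kPa, 2 members were higher as reported. The count was 0 with library size alone, 0 with only the groups compared and 0 with the depth term. It was 4 with DESeq2, 1 with the length and GC offset and 4 with the replicate block. Of all genes, 0.757%, 0.814%, 0, 2.97%, 1.01% and 2.48% were higher in those settings, in that order, against 1.10% as reported. The small minus large median at 30 against 1 kPa was 0.0412 with limma-voom and -0.0157 with the depth term, against 0.0164. For 8 kPa against the mean of the others, 15 members were higher with the depth term, against 24, where 4.02% of all genes were higher, against 4.42%. The cause was not tested.

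Leaving out 1 library at a time gave 9 to 45 members higher and 0 to 2 lower at 8 against 1 kPa (median 0.18 to 0.25). In those fits 1.94% to 11.1% of all genes were higher and 181 to 1622 genes lower. At 30 against 8 kPa, 0 to 1 members were higher and 0 to 4 lower (median -0.13 to -0.08), where 0 to 2.97% of all genes were higher and 0 to 484 genes lower. At 30 against 1 kPa, 0 to 3 members were higher (median 0.05 to 0.12), where 0.0769% to 2.08% of all genes were. For 8 kPa against the mean of the others, 0 to 34 members were higher and 0 to 2 lower (median 0.13 to 0.17). There 0 to 8.40% of all genes were higher and 0 to 1427 genes lower. The small minus large median ran from -0.0692 to -0.0254 at 8 against 1 kPa, 0.041 to 0.065 at 30 against 8 kPa, 0.0051 to 0.043 at 30 against 1 kPa and -0.0687 to -0.0338 for the departure of 8 kPa. No median of the members changed sign.

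Same-numbered libraries had correlations of -0.134 to 0.369, and libraries of different numbers -0.299 to 0.241. All same-numbered correlations were above 0 except the -0.134, which was between replicates 4 at 1 and 8 kPa. The ranges still overlap, so whether the numbers pair the libraries is not settled. With the replicate number as a block, 43 members were higher at 8 against 1 kPa, 4 at 30 against 1 kPa and 33 for the departure of 8 kPa. The shares of all genes called higher were then 10.4%, 2.48% and 6.98%, against 8.17%, 1.10% and 4.42% without the block. Of the named genes at 8 against 1 kPa, 145 values under an alternative were no longer past the threshold, 8 newly were, and 928 kept their side. The depth limits members of few counts, such as MRPL2 with 16 to 35 counts per library.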
